A study of Mus musculus with 6 samples.

Results

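The genes described here encode the T cell coreceptors CD4 and CD8 and the transcription factors that control them. They are Cd4, Cd8a and Cd8b1 for the coreceptor chains, and Zbtb7b, Patz1, Runx1, Runx3, Cbfb, Tox and Zbtb16 for the regulators. The 10 symbols were matched to the Ensembl identifiers of the deposited table, which lists 26128 genes, and all 10 were found and all 10 had enough counts to be tested.

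The CD4 coreceptor binds MHC class II on the presenting cell, and CD8, a dimer of 2 α chains or of an α and a β chain, binds MHC class I. Both bring the kinase Lck to the T cell receptor. In the thymus ThPOK, the product of Zbtb7b, directs cells to the CD4 lineage, while RUNX3 with its partner CBFβ directs them to the CD8 lineage and silences Cd4. MAZR, the product of Patz1, represses Cd8 genes and takes part in the repression of Zbtb7b, TOX is required for the development of CD4+ T cells, and PLZF, the product of Zbtb16, gives innate-like T cells their effector program. DNT cells are T cells that carry CD3 and neither coreceptor.

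RNA was sequenced from DNT cells that had been converted in culture from CD4+CD25- T cells of adult male C57BL/6 mice with mature dendritic cells of DBA/2 mice and IL-2. After the conversion the cells were sorted as CD3+NK1.1-CD4-CD8-, so every library comes from cells gated on the absence of CD4 and CD8 protein. The control group (3 libraries) received anti-CD3/CD28 beads alone for 48 h, and the IL-33 group (3 libraries) the same beads together with IL-33 at 50 ng/ml for the same time. The labels give the spleen as the source and the methods of the study the spleen and lymph nodes, and the origin of the replicates (mice, conversions or wells) is not stated in either, so the p-values measure only the spread between these samples, which may be technical. The totals ran from 20256342 to 22336050 counts per library. CPM are counts per 1000000 counts of the library, with the total scaled by TMM. In these units 3 counts, taken as the limit of detection, correspond to 0.135 to 0.147 CPM.

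The libraries carried the transcripts of T cells. All 11 T cell identity genes examined were detected, with 93 to 25599 counts in a library, of which Thy1 had the most and Cd5 the fewest. With IL-33, 2 of the 11 rose, 2 fell and 7 did not pass the test, with a median log2 fold change of 0.026, where 27.5% of all 14671 genes tested passed it in either direction. Cd5 was among those that fell (edgeR adjusted p = 0.0289). Its call was lost in DESeq2 (adjusted p = 0.0914). It was also lost without control library 3, IL-33 library 1 or IL-33 library 3 (edgeR adjusted p = 0.0935, 0.155 and 0.0641). Markers of other cell types are given at the end.

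Promoter sequences from RefSeq (GRCm38.p6) were available for 6 of the 10 genes, in 10 windows of 250 bases before an annotated start of transcription. They are shown for Cd8a, the most abundant coreceptor transcript, and for Runx3 and Zbtb7b, which encode the opposed regulators of the CD8 and CD4 lineages and are the genes among the 6 with the RUNX letters TGTGGT on either strand. The capitals mark those letters, read as ACCACA where they lie on the opposite strand. The Cd8a window is chr6:71373177-71373426 (plus strand), the Runx3 window lies before the first of its 2 starts at chr4:135120395-135120644 (plus strand), and the Zbtb7b window lies before the second of its 2 starts at chr3:89387672-89387921 (minus strand).
Cd8a: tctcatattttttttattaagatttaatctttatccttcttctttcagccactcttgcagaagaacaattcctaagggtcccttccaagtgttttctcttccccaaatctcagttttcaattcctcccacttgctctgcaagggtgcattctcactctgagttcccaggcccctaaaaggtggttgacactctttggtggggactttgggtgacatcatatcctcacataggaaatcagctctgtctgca
Runx3: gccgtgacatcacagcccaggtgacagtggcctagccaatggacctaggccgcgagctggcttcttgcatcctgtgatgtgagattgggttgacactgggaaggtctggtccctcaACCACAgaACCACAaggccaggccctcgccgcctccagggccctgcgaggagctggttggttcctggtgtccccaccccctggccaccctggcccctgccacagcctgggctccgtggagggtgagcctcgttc
Zbtb7b: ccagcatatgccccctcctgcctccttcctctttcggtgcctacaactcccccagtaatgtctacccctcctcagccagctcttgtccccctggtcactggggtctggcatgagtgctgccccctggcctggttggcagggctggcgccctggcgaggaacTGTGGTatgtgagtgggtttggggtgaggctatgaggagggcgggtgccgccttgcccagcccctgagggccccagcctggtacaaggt
The Runx3 window held the RUNX letters at 2 places, beginning 134 and 126 bases before the start, and the Zbtb7b window at 1 place, 89 bases before it. Of all 32851 windows of this length in the table, 14.0% held these letters, so 2 of 10 windows is close to what promoters hold in general. The E box letters CANNTG, which read the same on both strands, stood in 6 of the 10 windows and in 66.2% of all, and the GATA letters AGATAA on either strand in 0 of 10 and in 9.99% of all. A match describes the letters only, not binding of a factor. Cd4, Cd8b1, Tox and Zbtb16 have no entry in the table.

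The coreceptor genes and their regulators spanned a wide range of levels, from among the most abundant transcripts of the cells to the limit of detection. To compare genes with each other, CPM were divided by the length of the exons in kb. In the control group the order from high to low was Cd8a, Cbfb, Runx3, Zbtb7b, Runx1, Cd8b1, Patz1, Zbtb16, Cd4 and Tox. In this order the libraries of Patz1 and Zbtb16 overlapped, as did those of Cd4 and Tox, and all other neighbours stood apart.

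Cd8a stood at 149.7 ± 3.73 CPM per kb in the control libraries (SD, n = 3), above 97.9% of all genes tested when averaged over the 6 libraries. It was somewhat below Trac, the constant chain of the T cell receptor α, at 192.9 ± 6.40 CPM per kb. It was above Cd3e, a chain of CD3, at 73.4 ± 3.16 CPM per kb. It was below Cd3d and Cd3g, other chains of CD3, at 241.7 ± 11.6 and 215.8 ± 11.2 CPM per kb. The cells gated as CD8- held Cd8a transcripts at a level of the same order as those of the T cell receptor itself. Cd4 stood at 0.231 ± 0.0453 CPM per kb in the same libraries, and its average over the 6 libraries was above 3.09% of the genes tested.

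With IL-33 the order changed for Cd8b1, which went from the 6th to the 4th place, with 6.52 ± 1.11 CPM per kb in the control and 10.99 ± 1.39 in the IL-33 libraries. Runx3 went from 45.8 ± 1.70 to 61.1 ± 1.31 CPM per kb and so came level with Cbfb, which stood at 61.3 ± 1.05 CPM per kb in the IL-33 libraries. In the IL-33 group the libraries of Cbfb and Runx3, of Cd8b1 and Zbtb7b, and of Tox and Cd4 overlapped in their order.

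**Figure D1:**
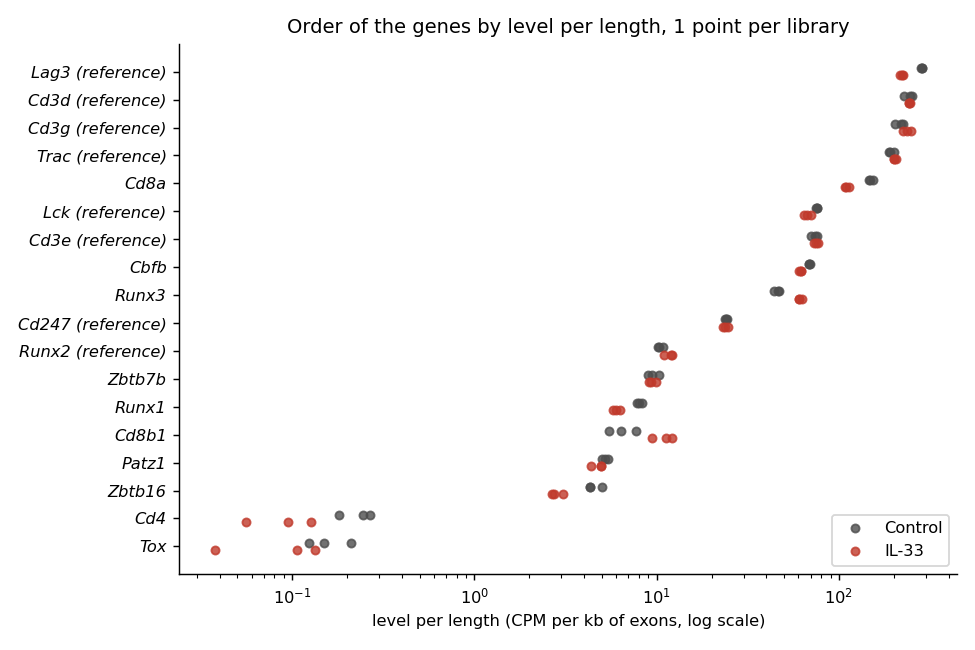
Level per length (CPM per kb of exons, log axis) of the 10 coreceptor genes and regulators and of 8 reference genes, with 1 point for each control library (grey) and each IL-33 library (red), ordered by the control mean. Cd8a lies among the T cell receptor and CD3 genes, while Cd4 and Tox lie at the bottom, below 0.3 CPM per kb in every library.

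IL-33 was then compared with control for each gene. Of the 10 genes, 7 had an adjusted p under 0.05 in edgeR's quasi-likelihood test, where 27.5% of all genes tested did. Cd8b1 and Runx3 rose (2 of 10, beside 13.6% of all genes higher), and Cd4, Cd8a, Runx1, Cbfb and Zbtb16 fell (5 of 10, beside 13.9% of all genes lower). With a fold change of at least 1.5 in either direction as a further threshold, Cd4, Cd8b1 and Zbtb16 remained (3 of 10, beside 4.87% of all genes). Cd4 passed the filter on low counts mainly through the control libraries, where it was higher, and lost its call when any of 4 libraries was left out. Without it 6 of 9 genes had an adjusted p under 0.05, 4 of them lower, and 2 were past both thresholds. The libraries of the groups did not overlap for 8 of the 10 genes, 2 higher and 6 lower with IL-33, where they did not for 38.9% of all genes tested. The median log2 fold change of the 10 genes was -0.29, beside -0.00063 over all genes tested. In libraries of many cells, fewer cells that express a gene and less of its RNA per cell cannot be told apart.

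**Figure D2:**
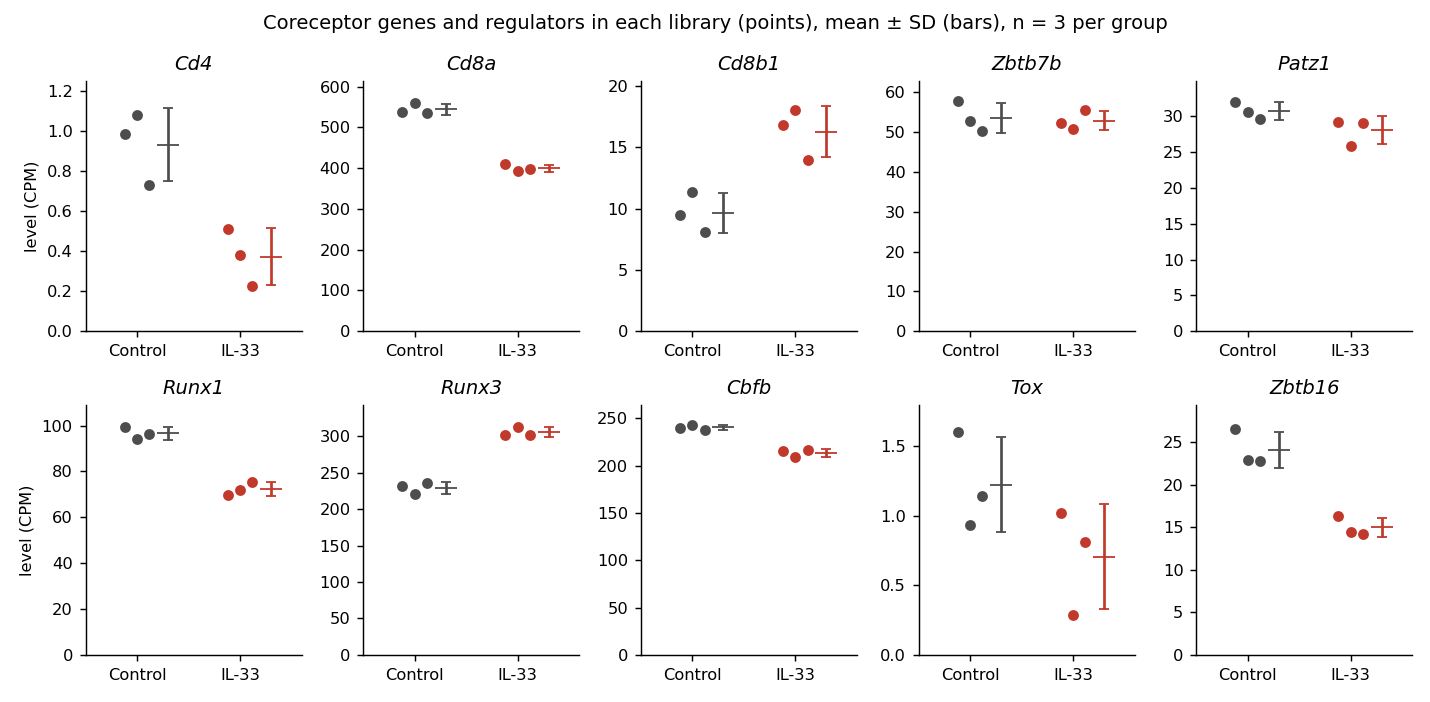
Level (CPM, linear axes from 0) of each of the 10 genes in each of the 3 control libraries (grey points) and 3 IL-33 libraries (red points), with mean ± SD beside the points. The groups overlap for Zbtb7b and Tox only, and Cd8b1 and Runx3 are the genes whose IL-33 libraries all lie above the control libraries.

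The 2 chains of CD8 moved in opposite directions. Cd8a (chr6:71373427-71379173, plus strand), which encodes the α chain found in both forms of CD8, had 11453, 11394 and 11732 counts in the control libraries and 8826, 8235 and 8830 counts in the IL-33 libraries. All 3 IL-33 libraries were below all 3 controls. The mean level fell from 544.6 ± 13.6 to 399.7 ± 9.15 CPM (SD, n = 3 each), a log2 fold change of -0.45 ± 0.028 (SE, 95% interval -0.50 to -0.39, edgeR adjusted p = 2.38e-26). Cd8a stayed, at 109.9 ± 2.52 CPM per kb, the most abundant of the 10 genes in the IL-33 libraries.

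Cd8b1 (chr6:71322788-71337494, plus strand) encodes the β chain, which reaches the surface only as a partner of the α chain. It had 202, 232 and 178 counts in the control libraries and 362, 379 and 312 counts in the IL-33 libraries. Each IL-33 library was above each control library, although the spread within a group was wider than for Cd8a. The mean level rose from 9.67 ± 1.65 to 16.3 ± 2.06 CPM (SD, n = 3 each), a log2 fold change of 0.75 ± 0.11 (SE, 95% interval 0.53 to 0.98, edgeR adjusted p = 6.16e-08), or 1.69-fold.

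The ratio of the chains changed accordingly. Per kb of exons, the libraries held 23.3 ± 3.43 times as much Cd8a as Cd8b1 in the control group and 10.1 ± 1.35 times as much in the IL-33 group (SD, n = 3 each). As a ratio of CPM, Cd8a to Cd8b1 was 56.7, 49.1 and 65.9 in the control libraries and 24.4, 21.7 and 28.3 in the IL-33 libraries. The groups did not overlap, and the log2 ratio differed by -1.21 (exact permutation test over the 6 libraries, two-sided, p = 0.1, which is the smallest that 3 against 3 libraries can give, and 0.1 after adjustment over the 5 ratios computed). A ratio within a library does not depend on how the libraries are scaled.

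Cd4 (chr6:124864692-124888221, minus strand), the gene of the coreceptor by which the cells had been chosen before the conversion, was close to the limit of detection. It had 21, 22 and 16 counts in the control libraries and 11, 8 and 5 counts in the IL-33 libraries. The IL-33 libraries were all lower, at 0.372 ± 0.143 CPM against 0.933 ± 0.183 CPM (SD, n = 3 each). The log2 fold change was -1.31 ± 0.46 (SE, 95% interval -2.23 to -0.40, edgeR adjusted p = 0.0233), with the widest interval of the 10 genes. Cd4 passed the filter on low counts through its control libraries, of which 3 were above the filter's limit of 0.467 CPM, against 1 of the IL-33 libraries. The call rests on few counts, and edgeR's adjusted p was 0.0725 without control library 1, 0.102 without control library 2, 0.0606 without IL-33 library 2 and 0.125 without IL-33 library 3. The ratio of Cd8a to Cd4 in CPM was 545, 518 and 733 in the control libraries and 802, 1030 and 1770 in the IL-33 libraries, without overlap (log2 difference 0.94, exact permutation test, two-sided, p = 0.1).

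**Figure D3:**
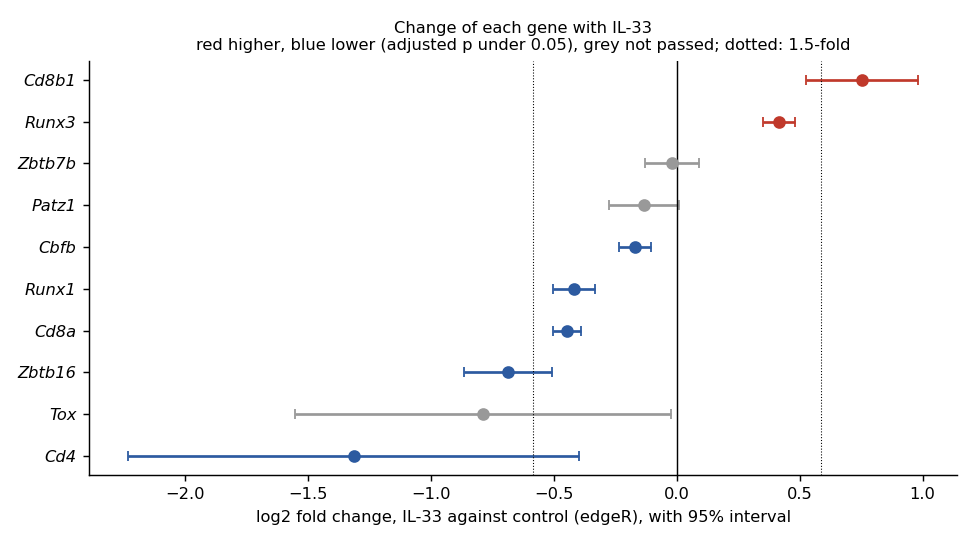
Log2 fold change of each gene (IL-33 against control, x axis) with its 95% interval from edgeR, in red where it is higher and blue where it is lower with an adjusted p under 0.05, and in grey otherwise, with dotted lines at a fold change of 1.5 in either direction. The interval of Cd4, from -2.23 to -0.40, is the widest, and that of Cd8a, from -0.50 to -0.39, is the narrowest.

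Neither Zbtb7b nor Patz1 passed the test. Zbtb7b (chr3:89377644-89394776, minus strand), the gene of ThPOK, had 1228, 1074 and 1102 counts in the control libraries and 1125, 1069 and 1234 counts in the IL-33 libraries. The groups overlapped, at 53.6 ± 3.85 and 52.9 ± 2.34 CPM (SD, n = 3 each). The log2 fold change was -0.019 ± 0.055 (SE, edgeR adjusted p = 0.841), with a 95% interval of -0.13 to 0.091. ThPOK transcripts were present at 9.59 ± 0.69 CPM per kb in the control libraries, in cells that had almost no Cd4 transcripts. Averaged over all libraries of both groups, their level was above 66.1% of the genes tested. Zbtb7b shares 116 exon bases with Gm15417 on the other strand, which had 2 to 24 counts in a library.

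Patz1 (chr11:3288874-3309083, plus strand), the gene of MAZR, had 681, 622 and 649 counts in the control libraries and 628, 542 and 647 counts in the IL-33 libraries. In CPM, the IL-33 libraries lay below the controls, at 28.0 ± 1.91 against 30.7 ± 1.24 CPM (SD, n = 3 each), by a small margin. The log2 fold change of -0.13 ± 0.071 (SE, 95% interval -0.27 to 0.0095) did not pass the test (edgeR adjusted p = 0.167).

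The RUNX genes that pair with CBFβ diverged. Runx3 (chr4:135120652-135177990, plus strand), the RUNX factor of CD8 lineage cells, had 4906, 4470 and 5186 counts in the control libraries and 6484, 6570 and 6724 counts in the IL-33 libraries. All IL-33 libraries were higher than all controls. The mean level rose from 229 ± 8.49 to 305.5 ± 6.54 CPM (SD, n = 3 each), a log2 fold change of 0.42 ± 0.032 (SE, 95% interval 0.35 to 0.48, edgeR adjusted p = 9.7e-21).

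Runx1 (chr16:92601466-92826149, minus strand), the RUNX factor that holds Cd4 silent in early thymocytes, went the other way. It had 2115, 1914 and 2113 counts in the control libraries and 1498, 1514 and 1682 counts in the IL-33 libraries, without overlap. The mean level fell from 96.6 ± 2.75 to 72.4 ± 3.03 CPM (SD, n = 3 each), a log2 fold change of -0.42 ± 0.043 (SE, 95% interval -0.50 to -0.33, edgeR adjusted p = 2.79e-14). The rise of Runx3 and the fall of Runx1 were of the same size on the log2 scale.

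The ratio of Runx3 to Runx1 in CPM was 2.32, 2.34 and 2.45 in the control libraries and 4.33, 4.34 and 4.0 in the IL-33 libraries. The groups stood far apart, with a log2 difference of 0.83 (exact permutation test, two-sided, p = 0.1). The third RUNX gene, Runx2, known best for its part in bone, rose by 0.16 ± 0.042 on the log2 scale (SE, edgeR adjusted p = 0.00121), from 92.2 ± 2.79 CPM (SD, n = 3) in the control libraries. Per kb of exons, the sum of all 3 RUNX genes went from 64.2 ± 1.56 to 78.8 ± 0.77 CPM per kb (SD, n = 3 each). Runx3 made up 71.2 ± 0.91% of that sum in the control libraries and 77.5 ± 0.96% in the IL-33 libraries, and Runx1 made up 12.51 ± 0.30% and 7.65 ± 0.31%.

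Cbfb (chr8:105170674-105217989, plus strand), the gene of the subunit that all 3 RUNX proteins share, had 5091, 4939 and 5211 counts in the control libraries and 4620, 4395 and 4814 counts in the IL-33 libraries. In CPM, all IL-33 libraries were lower. The mean level fell from 240 ± 2.65 to 213.5 ± 3.65 CPM (SD, n = 3 each), a log2 fold change of -0.17 ± 0.033 (SE, 95% interval -0.23 to -0.10, edgeR adjusted p = 1.78e-05), the least change among the 7 genes that passed the test. Set against the sum of the RUNX genes in CPM, Cbfb stood at 0.570, 0.593 and 0.560 in the control libraries and at 0.449, 0.434 and 0.448 in the IL-33 libraries (log2 difference -0.37, exact permutation test, two-sided, p = 0.1). The ratio of Runx3 to Zbtb7b, the opposed factors of the lineage choice, was 4.0, 4.16 and 4.71 in the control and 5.76, 6.15 and 5.45 in the IL-33 libraries, again without overlap (log2 difference 0.43, exact permutation test, two-sided, p = 0.1).

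**Figure D4:**
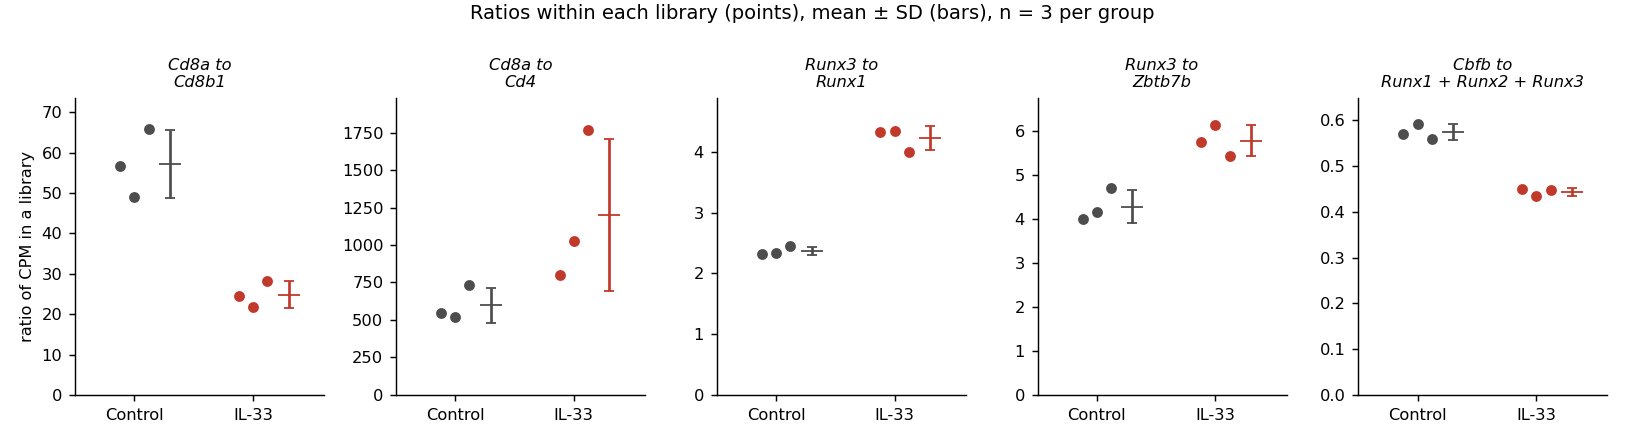
Ratios of CPM within each library (linear axes from 0) for the 3 control libraries (grey points) and the 3 IL-33 libraries (red points), with mean ± SD beside the points. No ratio overlaps between the groups, and the ratio of Cd8a to Cd8b1 goes from 49.1 or more to 28.3 or less while that of Runx3 to Runx1 goes from 2.45 or less to 4.0 or more.

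TOX and PLZF belong to the development of T cells and of innate-like T cells. Zbtb16 (chr9:48654297-48836222, minus strand), the gene of PLZF, had 565, 465 and 501 counts in the control libraries and 350, 305 and 315 counts in the IL-33 libraries. Every IL-33 library was lower than every control library. The mean level fell from 24.1 ± 2.16 to 14.98 ± 1.12 CPM (SD, n = 3 each), a log2 fold change of -0.69 ± 0.090 (SE, 95% interval -0.86 to -0.51, edgeR adjusted p = 3.97e-10), to 0.622 of the control level.

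Tox (chr4:6686353-6991557, minus strand) was, beside Cd4, the gene nearest to the limit of detection, with 34, 19 and 25 counts in the control libraries and 22, 6 and 18 counts in the IL-33 libraries. The groups overlapped, at 1.22 ± 0.341 and 0.706 ± 0.379 CPM (SD, n = 3 each). The log2 fold change of -0.79 ± 0.39 (SE, 95% interval -1.55 to -0.021) did not pass the test (edgeR adjusted p = 0.123), and a change was not detectable at this depth. Of the libraries, 3 control and 2 IL-33 libraries were above the filter's limit.

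The other genes of the pathway were taken from 5 lists, for which the share of all genes with an adjusted p under 0.05 is again 27.5%. Of all genes tested, 13.6% were called higher and 13.9% lower, and 4.87% were past both thresholds. Most of their changes were small beside those of the coreceptor genes. Of 23 chromatin and corepressor partners of the Cd4 silencer and of RUNX, 2 rose, 9 fell and 12 did not pass the test, with a median log2 fold change of -0.088 and none past both thresholds. Without IL-33 library 2 the list had 7 called genes in place of 11. Tle3, a Groucho corepressor that binds RUNX proteins, rose by 0.15 ± 0.032 and Ncor1, a nuclear receptor corepressor, by 0.085 ± 0.029 on the log2 scale (SE). The call of Ncor1 was lost without control library 2, IL-33 library 2 or IL-33 library 3 (edgeR adjusted p = 0.175, 0.0509 and 0.0541) and with library totals in place of TMM (0.0693). Dnmt1, the maintenance DNA methyltransferase, had a log2 fold change of -0.38 ± 0.032, and Uhrf1, which brings it to newly copied DNA, of -0.49 ± 0.041 (SE). Uhrf1 went from 141 ± 8.63 to a level of 94.7 to 103 CPM in the IL-33 libraries. Chd4, the remodeller of the NuRD complex and the most abundant of the list at 633.6 ± 16.9 CPM in the controls, had a log2 fold change of -0.096 ± 0.027 (SE, edgeR adjusted p = 0.00289).

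Of 19 tested genes for other transcription factors of the CD4 and CD8 lineage choice, of 20 listed, 3 rose, 10 fell and 6 did not pass, with a median log2 fold change of -0.13 and none past both thresholds. Lef1, a partner of TCF-1 in the repression of Cd4, rose by 0.35 ± 0.046, and Runx2, given above, also belongs to the list. Nfatc1, a calcium-regulated factor, had a log2 fold change of -0.27 ± 0.036, and Satb1, an organiser of chromatin in thymocytes, of -0.20 ± 0.029 (SE). Id2, an inhibitor of E proteins, was the most abundant at 1021 ± 4.90 CPM in the controls and rose by 0.073 ± 0.024 on the log2 scale (SE, edgeR adjusted p = 0.0125, 0.0566 without IL-33 library 3 and 0.0666 with library totals).

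The T cell receptor complex and the kinases coupled to the coreceptors gave 3 genes that rose, 8 that fell and 9 that did not pass among 20, with a median log2 fold change of -0.029, which was 0.0020 without IL-33 library 3, and none past both thresholds. Lck, the kinase that CD4 and CD8 carry, fell by 0.17 on the log2 scale (edgeR adjusted p = 2.19e-05), with 75.5 ± 0.77 CPM per kb in the control and 67.0 ± 2.76 in the IL-33 libraries. Cd28, the costimulatory receptor, rose by 0.14 ± 0.038 and Fyn, the other Src kinase of T cells, by 0.095 ± 0.031 on the log2 scale (SE). The call of Fyn was lost without control library 3 or IL-33 library 1 (edgeR adjusted p = 0.0587 and 0.109) and with library totals (0.0545). Lat, the adaptor that the kinases of the receptor phosphorylate, had a log2 fold change of -0.26 ± 0.039 (SE). Ptprc, the gene of CD45, was the most abundant at 3644 ± 26.8 CPM in the controls, with a log2 fold change of -0.11 ± 0.019 (SE, edgeR adjusted p = 1.58e-06).

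Of 14 tested effector genes known to depend on RUNX3 or ThPOK, of 15 listed, 2 rose, 7 fell and 5 did not pass, with a median log2 fold change of -0.088 and 3 past both thresholds. Ifng, the gene of interferon-γ, had 38.3, 43.5 and 46.2 CPM in the control libraries and 85.2, 83.8 and 80.3 CPM in the IL-33 libraries. It rose by 0.96 ± 0.052 on the log2 scale (SE, edgeR adjusted p = 4.12e-29), while Prf1, the gene of perforin, rose by 0.10 ± 0.023. Itgae, the gene of CD103, is a known target of RUNX3 in CD8 cells and had 17.0, 17.8 and 19.6 CPM in the control libraries and 7.01, 7.19 and 9.08 CPM in the IL-33 libraries. Its log2 fold change was -1.22 ± 0.11 (SE, edgeR adjusted p = 1.21e-16), opposite in sign to that of Runx3. Socs1, an inhibitor of cytokine signalling, had a log2 fold change of -0.87 ± 0.067 (SE, edgeR adjusted p = 1.04e-20). Gzmb, the gene of granzyme B and the most abundant of the list at 16780 ± 39.4 CPM in the controls, had a log2 fold change of -0.12 ± 0.015 (SE, edgeR adjusted p = 2.14e-10).

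Of 16 tested genes of innate-like lymphocytes that express PLZF, of 17 listed, 6 rose, 6 fell and 4 did not pass, with a median log2 fold change of -0.13 and 2 past both thresholds. Rora, a nuclear receptor of innate-like lymphocytes, had a log2 fold change of -0.37 ± 0.041 (SE). Slamf6, a SLAM family receptor that takes part in the development of NKT cells, rose by 0.86 ± 0.11 (SE, edgeR adjusted p = 3.48e-10), from 8.74 ± 0.33 to 15.9 ± 1.34 CPM (SD, n = 3 each). Il18r1, a chain of the receptor for IL-18, rose by 0.38 ± 0.050 on the log2 scale (SE), and Id2 was again the most abundant. The list was thus split, with as many genes higher as lower.

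**Figure D5:**
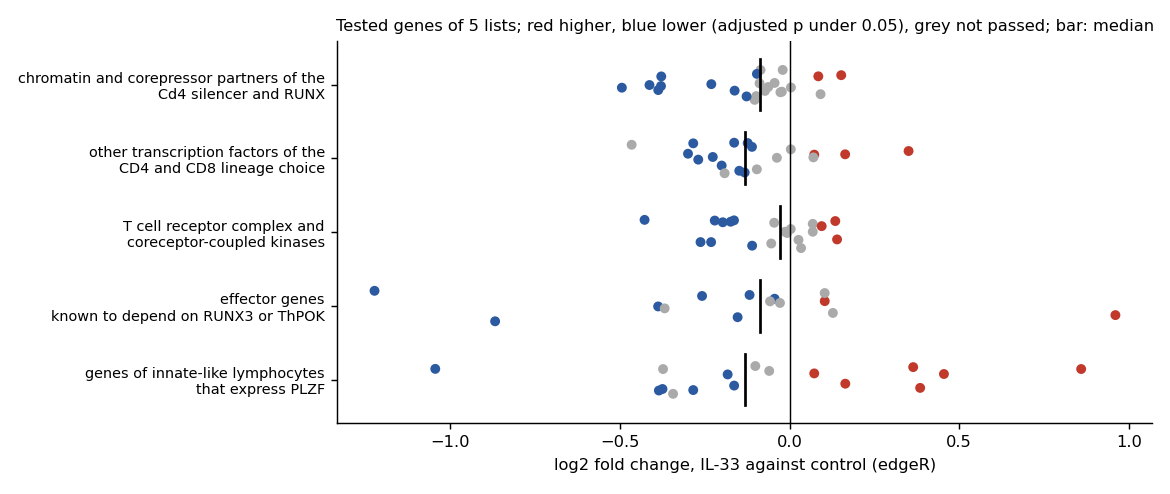
Log2 fold change (IL-33 against control, edgeR, x axis) of each tested gene of the 5 lists, in red for higher and blue for lower with an adjusted p under 0.05 and grey for not passed, with the list's median as a black bar. Most points lie between -0.5 and 0.5, and Ifng and Slamf6 on the right and Itgae and Socs1 on the left are among the genes past both thresholds.

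Genes that lie close to the coreceptor genes were read from the same fit. Lag3, a relative of Cd4 in structure that binds MHC class II as an inhibitory receptor, lies 16140 bases from Cd4 on the same strand. It had 12819, 12260 and 13070 counts in the control libraries and 10261, 9789 and 10158 counts in the IL-33 libraries. It fell by 0.36 on the log2 scale (SE 0.027, edgeR adjusted p = 8.25e-22), and at 284.7 ± 2.00 CPM per kb in the controls it was far above its neighbour Cd4. Gpr162, at 709 bases from Cd4, had a log2 fold change of -0.027 ± 0.18 (SE, edgeR adjusted p = 0.936), and Ptms, P3h3 and A230083G16Rik did not pass the test either (edgeR adjusted p = 0.149, 0.16 and 0.692).

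Near the Cd8 genes, Smyd1, at 555 bases from Cd8b1, had a log2 fold change of -0.66 ± 0.39 (SE, edgeR adjusted p = 0.208), with 7 to 30 counts in a library. The lincRNA Gm44174, 143 bases from Cd8a, had 9 to 39 counts and did not pass (edgeR adjusted p = 0.211). Rmnd5a had a log2 fold change of -0.11 ± 0.040 (SE, edgeR adjusted p = 0.0369) and Gm44175 one of -0.63 ± 0.23 (SE, edgeR adjusted p = 0.0304). Both of these calls were lost in other fits, with an adjusted p of 0.107 and 0.122 in DESeq2, and without control library 1 (0.196 for Rmnd5a and 0.293 for Gm44175) or IL-33 library 1 (0.0761 and 0.198) in edgeR. That of Rmnd5a was also lost without IL-33 library 2 (edgeR adjusted p = 0.327) and with no filter on low counts (0.0572), and that of Gm44175 with a replicate block (0.0635). No gene tested within 30 kb of Cd8b1 rose with it. Near Zbtb7b, Cks1b, a subunit of cyclin-dependent kinases, had a log2 fold change of -0.33 ± 0.063 (SE, edgeR adjusted p = 1.6e-05), while Flad1, Adam15, Shc1 and Gm15417 did not pass, with Shc1 at an edgeR adjusted p of 0.0706, and 0.0305 without IL-33 library 3.

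Gm16224 lies inside Runx3 on the other strand and shares no exon bases with it. It had 184, 205 and 269 counts in the control libraries and 351, 358 and 390 counts in the IL-33 libraries, and rose by 0.71 ± 0.11 on the log2 scale (SE, edgeR adjusted p = 5.64e-08). How strand was treated in counting is not given in the sources used here, so reads of Runx3 introns and of Gm16224 cannot be told apart. Runx1 shares 106 exon bases with Gm26626 (7 to 18 counts in a library), and Patz1 shares 605 with Gm12592 and 88 with Gm11944 (10 to 25 and 17 to 23 counts), all far below the counts of Runx1 and Patz1. Tox shares 260 exon bases with a gene on the other strand that the deposited table does not list. Cd4, Cd8a, Cd8b1 and Zbtb16 overlap no annotated gene.

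Markers of cells that could carry these transcripts moved in part with them. Dendritic cells were in the conversion culture, and some of their subsets carry Cd8a or Cd4. The sort was for CD3+ cells, and the number of cells without CD3 that remained is not known. For the marker lists, too, the share of all genes called was 27.5%, with 13.6% higher and 13.9% lower. Of 16 dendritic cell markers listed 15 were in the table and 12 were tested, of which 5 rose and 2 fell. Itgax, the gene of CD11c and the most abundant of them, is also made by activated T cells, and went from 54.5 ± 2.07 to 26.0 ± 1.58 CPM (SD, n = 3 each, log2 fold change -1.07 ± 0.064, SE, edgeR adjusted p = 4.26e-28). The summed level of the 15 markers was 113 to 117 CPM in the control libraries and 100 to 105 CPM in the IL-33 libraries. Without Itgax the sum of the other markers was 57.3 to 63.7 CPM in the control and 75.6 to 78.2 CPM in the IL-33 libraries. Whether the RNA of these other markers came from dendritic cells was not tested.

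The genes of the dendritic cell list differed among themselves. Xcr1, which marks the subset that carries Cd8a, had 223 to 282 counts in a library and a log2 fold change of 0.11 ± 0.11 (SE, edgeR adjusted p = 0.521). Zbtb46 had 50 to 72 counts and a log2 fold change of 0.043 ± 0.21 (SE, edgeR adjusted p = 0.912). Flt3 had 0 to 2 counts, Siglech 0 to 1 and H2-Aa 2 to 10 in a library. The markers that rose were Batf3, Fscn1 and Ccr7, by 1.28, 1.41 and 1.14 on the log2 scale, and H2-Ab1 and Cd80, by 0.29 and 0.48, while Cd74 fell with Itgax (log2 fold change -0.58). The call of Cd80 was lost in DESeq2 (adjusted p = 0.0561). It was also lost without control library 1 or IL-33 library 3 (edgeR adjusted p = 0.137 and 0.0602). The part of dendritic cells in the changes of Cd4 and Cd8a was not tested, and Clec9a was not analysed here.

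γδ T cells can lack both coreceptors and can carry PLZF. The conversion began from purified CD4+CD25- T cells, and the number of γδ T cells that remained is not known. All 7 γδ T cell markers listed were tested, and 6 fell, where 13.9% of all genes did, with a median log2 fold change of -0.46. Their summed level was 389 to 413 CPM in the control and 335 to 346 CPM in the IL-33 libraries. Tcrg-C2 made up most of that sum, which does not give the number of γδ T cells. Trdc, the constant region of the δ chain, went from 24.6 to 15.1 CPM (log2 fold change -0.70 ± 0.088, SE, edgeR adjusted p = 7.13e-11), and Tcrg-C2, the most abundant, from 232.5 ± 8.58 to 206.3 ± 3.76 CPM (SD, n = 3 each). These markers fell together with Cd8a, Runx1 and Zbtb16, and their part in those changes was not tested.

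Of 8 NK cell markers, 5 were tested, 1 rose and 1 fell, and the sum was 94.6 to 97.8 CPM in the control and 107 to 114 CPM in the IL-33 libraries. Klrb1c, the gene of NK1.1 against which the cells had been gated, had a log2 fold change of -0.39 ± 0.072 (SE, edgeR adjusted p = 7.14e-06). Fcgr3, a receptor for IgG that other cells also make, was the marker that rose, from 18.6 ± 2.81 to 39.5 ± 1.499 CPM (SD, n = 3 each, edgeR adjusted p = 1.83e-21), and Ncr1 had 0 to 5 counts in a library. Of 8 macrophage and monocyte markers, 3 were tested and 2 rose, with sums of 32.3 to 35.8 and 37.8 to 43.3 CPM, led by Cd68, whose call was lost without control library 1, control library 2 or IL-33 library 2 (edgeR adjusted p = 0.0982, 0.0884 and 0.153, against 0.0256). Of 8 B cell markers, 6 were in the table, 3 were tested and 1 fell, with sums of 8.80 to 9.24 and 6.76 to 8.32 CPM, led by Cd79b. Of 8 mast cell and basophil markers, 4 were tested and 1, Cpa3, fell, from 10.9 ± 2.04 to 7.09 ± 0.61 CPM (SD, n = 3 each), with sums of 19.5 to 25.3 and 13.7 to 18.0 CPM. The part of these cells in the changes of the coreceptor genes was not tested either.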

How the data were processed

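RNA sequencing of 6 libraries of DNT cells was used, 3 of the control group and 3 of the IL-33 group, as grouped by their labels. Values as deposited are whole-number counts of reads for each gene, which the authors had not normalized. Library kits are named differently in the labels (Illumina TruSeq) and in the methods of the study (NEBNext Ultra). The submitters' processing notes name Bowtie 0.12.2 and the build mm8 without their roles, while counting program, annotation and strand setting were not given in the sources used here. A column of signal with 1 mean per gene was not used. Positions, exon lengths and symbols came from GENCODE M21 (GRCm38), matched by Ensembl identifier for 26072 of the 26128 genes.

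The 10 genes and all lists were chosen with earlier results of these data known. Genes were filtered with filterByExpr of edgeR 4.0.16 (minimum count 10, minimum total count 15), which left out 0.108 to 0.113% of the counts of a library, scaled by TMM and compared with its quasi-likelihood test (robust, two-sided, no covariates) in R 4.3.3, and p-values were adjusted by Benjamini-Hochberg across the 14671 genes that passed. Both thresholds (adjusted p of 0.05, 1.5-fold) follow the study's methods, which name no tool. CPM were counts per 1000000 counts of the library, with its total multiplied by its TMM factor, while the limits of the filters used unscaled totals. SEs and 95% intervals came from the same fit. Simulated data tested its recovery of changes in genes well above the limit of detection, not its SEs or intervals. Replicates differed by more than counting noise (chi-square per gene of 2.64 to 3.67). Each library counted as 1 sample, and this spread does not show that the libraries were independent.

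The genes named are the 10 genes, from each pathway list the 2 with the smallest p in each direction among those with an adjusted p under 0.05 and the most abundant gene, from each marker list the most abundant gene, tested genes within 30 kb of Cd4, Cd8a, Cd8b1 and Zbtb7b, and Lag3. Lck, Trdc, Thy1, Cd5, Flt3, Siglech, Ncr1, H2-Aa, Xcr1, Zbtb46, Batf3, Fscn1, Ccr7, H2-Ab1, Cd80, Cd74, Fcgr3, the reference genes of the level plot and the genes that overlap the RUNX genes, Zbtb7b and Patz1 were named beside this rule, after their values had been seen. Some genes that the rule gives are not reported here. Alternatives were DESeq2 1.42.0, limma-voom 3.58.1, size factors of DESeq2, library totals without TMM, no filter, a stricter filter (1 CPM or more in all libraries of a group), a replicate block, a test of the change against 1.5-fold, calls by adjusted p only and each library left out in turn.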

Additional observations from a re-analysis of the deposited data

How the results depend on the processing

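Of the 10 genes, 7 had an adjusted p under 0.05 in the main comparison, and 6 or 7 had one under each alternative that refitted the data. The exception was Cd4, which lost its call when either of control replicates 1 and 2 or either of IL-33 replicates 2 and 3 was left out, and had no value under the stricter filter and no adjusted p from DESeq2. Its log2 fold change ran from -1.61 to -1.05, and edgeR's adjusted p was 0.0430 without a filter. Over all genes, 714 passed both thresholds, against 113 with the test against the fold change threshold and 4036 with the adjusted p alone, as these alternatives are stricter and looser by construction, and 501 with DESeq2. Leaving out 1 replicate at a time gave 621 to 719 genes and 6 to 7 of the 10.

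The replicate numbers did not pair the libraries, with correlations of same-numbered deviations of 0.0271, -0.0265 and 0.0456 over 10137 genes. With the replicate block 666 genes passed both thresholds and 7 of the 10 genes had an adjusted p under 0.05. The median of the T cell receptor list was 0.0020 without IL-33 replicate 3, against -0.029, and the chromatin list had 7 called genes without IL-33 replicate 2, against 11. Ncor1, Id2, Fyn, Cd5, Cd68, Cd80, Gm44175 and Rmnd5a lost their call in 1 or more alternatives, and Shc1 gained one in 2. No named gene with an adjusted p under 0.05 changed sign. Of those without one, Zbtb7b, Gpr162, Flad1, Zbtb46, Gm15417 and Gm26626 did in some alternatives, with Zbtb7b from -0.065 to 0.039 and Gm15417 at 1.081 without control replicate 1. At the depth of these libraries a change in Cd4 or Tox could be sized only within wide intervals.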
